A study of Homo sapiens with 16 samples.

Results

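The alpha-arrestins and the transcription factor pair MondoA and MLX were examined in RNA-seq of the multiple myeloma cell lines MM1S and MM1R treated with TAK-981, dexamethasone (Dex) or both. The set holds 7 genes, namely TXNIP, ARRDC1, ARRDC2, ARRDC3 and ARRDC4 of the alpha-arrestin family, MLXIP, which encodes MondoA, and MLX, its dimer partner. They were taken by symbol from a table of 23354 genes, all 7 were found, and all 16 libraries were used. The rule picks the genes by name, but the set was chosen on log2 fold changes and levels already seen in these same 16 libraries, so every member's value below is a description and carries no p-value. MM1S is glucocorticoid sensitive and MM1R is glucocorticoid resistant. The doses were 0.1 μM for TAK-981 (TAK in sample names) and 1 μM for Dex, and each line received vehicle (Veh), 1 of these drugs, or both together at the same doses (combo, com in sample names) for 48 h. TAK-981 inhibits the SUMO-activating enzyme, which starts the attachment of SUMO to proteins, and Dex is a synthetic glucocorticoid that activates the glucocorticoid receptor. Each of the 8 groups has 2 libraries, made from total RNA depleted of ribosomal RNA. Both lines derive from 1 parental myeloma culture, and nothing in the labels says that the 2 libraries of a group came from separate cultures.

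MondoA and MLX form a dimer that senses glucose 6-phosphate and related hexose phosphates and then binds promoters at paired E-boxes, an arrangement called the carbohydrate response element. TXNIP and ARRDC4 are its best-known targets. TXNIP binds thioredoxin and limits the uptake of glucose by drawing glucose transporters into the cell, and it is also known as a gene that glucocorticoids raise in lymphoid cells. The other alpha-arrestins are adaptors that bring ubiquitin ligases of the NEDD4 family to membrane proteins, which are then internalized and sorted.

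The promoter stretches below show where the paired E-box motif that MondoA and MLX recognise was matched, as 30 bases on the gene's own strand, 5′ to 3′, with the match in capitals. The sequences are RefSeq's for GRCh38.p14, in windows from 250 bases before to 50 bases after each gene start, and 10 windows were found for the 7 genes.
TXNIP, chr1:145996644-145996673, minus strand, 2 mismatches: gatgtgCACGAGGGCAGCACGAGcctccgg
ARRDC2, chr19:18001094-18001123, plus strand, 3 mismatches: cggcggCCCGCGTGCGTCACGGGggcggat
ARRDC3, chr5:91380107-91380136, minus strand, 3 mismatches: gcccggCACTTGTTTACCACGGCgcggccg
ARRDC4, chr15:97960476-97960505, plus strand, 3 mismatches: ccagtaAACGGCCTGTGCACGTGcacgccg
MLX, chr17:42567033-42567062, plus strand, 3 mismatches: gattggCGGGCGCGGGTCACGTGggcacgc
The motif searched was CACGTG, then any 5 bases, then CACGTG again, and it reads the same on both strands. A match with at most 2 mismatches was found in the TXNIP promoter alone among the 7 genes, starting 88 bases before the gene start, and 1.01% of all 35116 promoter windows of the same length hold one. At most 3 mismatches gave a match for 5 of the 7 genes, against 11.1% of all 27305 genes. An exact single E-box (CACGTG) was found for ARRDC4, 210 bases before the start, and for MLX, 50 bases before it, and each is one arm of the paired match printed above. Of all windows, 7.26% hold an exact E-box. No window of the 7 genes held a glucocorticoid response element (AGAACA, any 3 bases, TGTTCT) with at most 2 mismatches, which 1.41% of all windows hold. None held the single arm TGTTCT either, on either strand, against 14.8% of all windows. A match is a description of letters, and these windows say nothing of sites farther away.

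MM1S libraries held 15707587 to 20644510 counts in total and MM1R libraries 18987739 to 24796539. Levels are given as CPM (a gene's counts over the TMM-scaled library size, in the usual CPM unit), and levels of different genes are compared only per kilobase (RPKM). The authors' table uses hg19 positions. Each library is bulk RNA, in which fewer cells with a transcript and less of it per cell cannot be told apart. The glucocorticoid-induced gene FKBP5 checked the labels: Dex took it from 68.6 and 69.0 to 1725 and 1602 CPM in MM1S, whereas in MM1R it was at 93.0 and 96.4 CPM with vehicle and at 92.5 and 98.95 with Dex. NR3C1, the glucocorticoid receptor gene, was at 280 ± 4.35 CPM in vehicle-treated MM1S and at 18.9 ± 1.41 CPM in vehicle-treated MM1R (SD, n = 2 each). All 7 plasma cell markers were above 1 CPM in every library, with a sum of 3063 to 5647 CPM. The T cell markers summed to 0.619 to 5.76 CPM, the myeloid to 0.0436 to 0.543, the erythroid to 1.30 to 12.4 and the stromal to 0.101 to 1.86. CD3D and COL3A1 were at 0 in every library. The erythroid gene HBB, at 1.30 to 12.4 CPM, was also above 1 CPM in every library, and its range overlapped that of CD38 (6.74 to 44.9), a plasma cell marker. CD3E was at 0.372 to 5.33 CPM. In what follows a gene is called higher or lower where edgeR's quasi-likelihood test over all 14215 genes tested gave a Benjamini-Hochberg adjusted p under 0.05, and intervals are 95% intervals of the fitted log2 fold change. All 7 genes passed the filter on low counts, but ARRDC2 passed only through combo-treated MM1S.

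TXNIP was the most abundant of the 7 genes per kilobase in every group and the one with the widest range of CPM levels. The table places it on chromosome 1 from 145438462 to 145442628, plus strand, a segment that GRCh38 turns to the minus strand. In MM1S it was at 726 and 615 CPM with vehicle, at 2324 and 2316 CPM with TAK-981, at 1854 and 1971 CPM with Dex and at 3181 and 3219.8 CPM with combo. In MM1R it was at 478 and 474 CPM with vehicle, at 1491 and 1479 CPM with TAK-981, at 434 and 471 CPM with Dex and at 1438 and 1379 CPM with combo. TAK-981 and combo libraries thus lay above all vehicle libraries in both lines, and Dex libraries lay above vehicle in MM1S only, with MM1R Dex just below vehicle. Ordered by mean, the 8 groups were MM1S combo, TAK-981 and Dex, MM1R TAK-981 and combo, MM1S vehicle, MM1R vehicle and MM1R Dex, and no group overlapped its neighbour in this order. The highest group mean was 7.08 times the lowest.

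This gene carried 0.0437% of all counts in the lowest library and 0.329% in the highest. Per kilobase it stood 166th of 23354 genes in vehicle-treated MM1S, at 212 ± 24.9 RPKM, and 15th in combo-treated MM1S, at 1011 ± 8.64 RPKM (SD, n = 2 each). In MM1R it moved from 293rd with vehicle to 56th with TAK-981. On the same RPKM scale in vehicle-treated MM1S, MLX was at 26.1, ARRDC3 at 25.2, MLXIP at 9.02, ARRDC1 at 8.45, ARRDC4 at 0.721 and ARRDC2 at 0.0408. The TXNIP level in that group was above the sum of the other 6 genes. The 8 table entries that overlap TXNIP are repeat-family or non-coding loci whose listed spans are merged over distant copies (NBPF8, NBPF9, NBPF10, NBPF20, LINC00623, LOC100132062, LOC100133331 and PPIAL4A), and none of them exceeded 1156 counts where TXNIP had at least 9925.

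**Figure D1:**
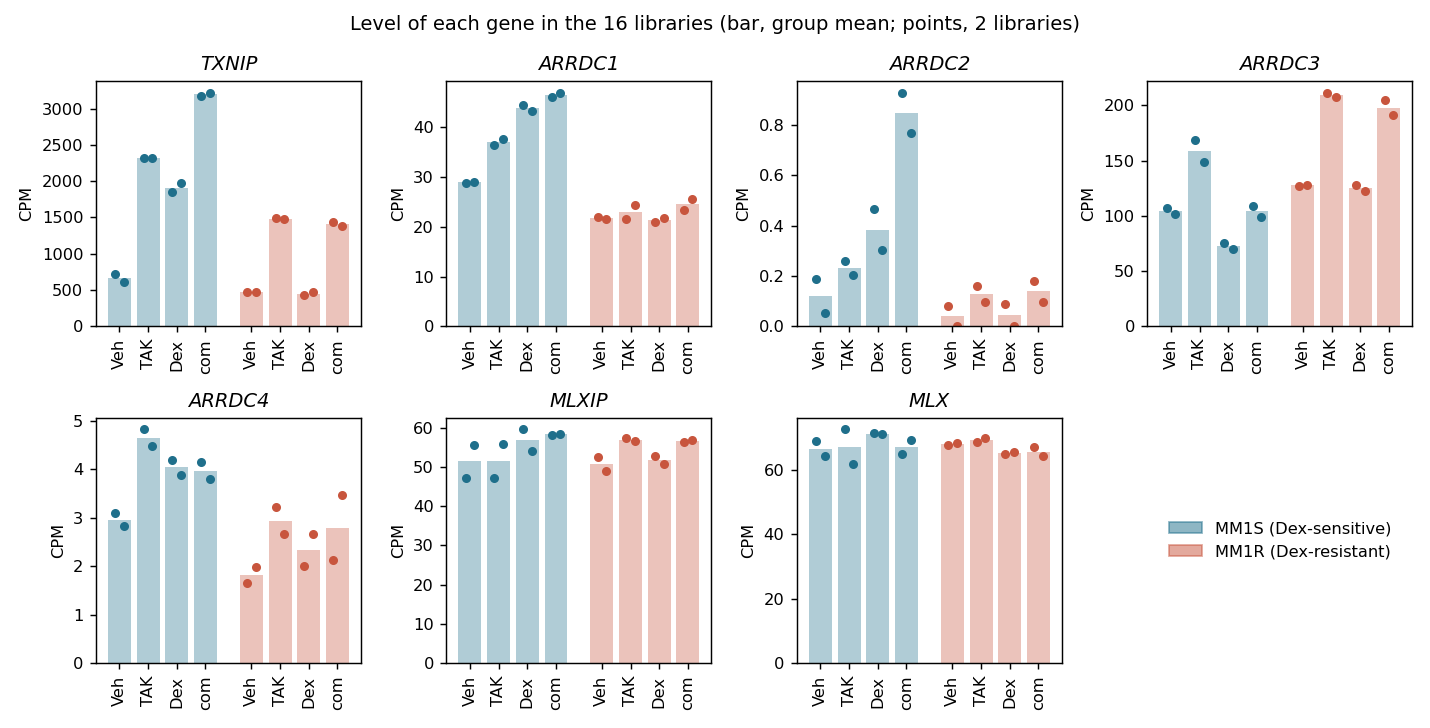
Level of each of the 7 genes in CPM (linear axes from 0) by treatment in MM1S (blue) and MM1R (red), with bars for group means and points for the 2 libraries. TXNIP reaches 3219.8 CPM in combo-treated MM1S, ARRDC3 is lowest in Dex-treated MM1S, ARRDC2 stays under 1 CPM, and MLXIP and MLX stay within 47.1 to 59.6 and 61.7 to 72.5 CPM.

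TAK-981 raised TXNIP 3.46-fold in MM1S (log2 fold change 1.79, interval 1.65 to 1.93) and 3.12-fold in MM1R (1.64, interval 1.503 to 1.779). Among the 9646 genes with a mean log2 CPM of at least 3, this log2 fold change ranked 32nd from the top in MM1S and 60th in MM1R. The difference of the TAK-981 change between the lines, MM1R minus MM1S, was −0.15 on the log2 scale (interval −0.34 to 0.046) and was not called. The MM1S vehicle libraries, at 726 and 615 CPM, lay farther apart than those of MM1R. Leaving out each library in turn gave 1.67 to 1.91 for the TAK-981 change in MM1S and 1.63 to 1.65 for that in MM1R.

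Of the other alpha-arrestins, ARRDC3 rose with TAK-981 in both lines. ARRDC3, on chromosome 5 from 90664541 to 90679149, minus strand, is an adaptor for the turnover of the beta2-adrenergic receptor and of integrin beta4. Its level was 108 and 102 CPM with vehicle and 169 and 149 CPM with TAK-981 in MM1S, and 127 and 128 CPM with vehicle and 211 and 207 CPM with TAK-981 in MM1R. The log2 fold change was 0.60 (interval 0.45 to 0.75) in MM1S and 0.72 (0.57 to 0.86) in MM1R, and the groups did not overlap. Its antisense neighbour ARRDC3-AS1 shares 2986 bases with it, and whether strand was used in counting is not stated. That neighbour had 16 to 56 counts where ARRDC3 had 1390 to 4526, and was 0.71 higher on the log2 scale with TAK-981 in MM1S (edgeR adjusted p = 0.0357) and 0.86 higher in MM1R (adjusted p = 0.0342).

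ARRDC1 rose with TAK-981 in MM1S and was not called in MM1R. The gene, on chromosome 9 from 140500096 to 140510657, plus strand, encodes an adaptor that recruits the ESCRT protein TSG101 to bud vesicles from the cell surface. It was at 28.8 and 29.1 CPM with vehicle and at 36.3 and 37.5 CPM with TAK-981 in MM1S, a log2 fold change of 0.35 (interval 0.19 to 0.51). The MM1R libraries, at 21.9 and 21.5 CPM with vehicle and 21.5 and 24.4 CPM with TAK-981, overlapped, with 0.084 (interval −0.086 to 0.25). The difference between the lines was −0.27 and was not called. ARRDC1-AS1, which shares 874 bases with ARRDC1, had 307 to 465 counts where ARRDC1 had 401 to 859.

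ARRDC4 is, like TXNIP, a known target of MondoA and acts on glucose transport, but its counts were low, at 40 to 93 per library. It lies on chromosome 15 from 98462784 to 98517068, plus strand. In MM1S it was at 3.10 and 2.82 CPM with vehicle and at 4.82 and 4.48 CPM with TAK-981, and in MM1R at 1.65 and 1.98 CPM with vehicle and at 3.22 and 2.66 CPM with TAK-981. TAK-981 libraries lay above vehicle libraries in both lines, with log2 fold changes of 0.65 (interval 0.22 to 1.07) in MM1S and 0.69 (0.20 to 1.18) in MM1R. The MM1S call was lost with DESeq2 and without MM1S Veh replicate 2 (0.58) or MM1S TAK replicate 1 (0.59), and the MM1R call without MM1R Veh replicate 1 (0.56) or MM1R TAK replicate 1 (0.55).

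MLXIP and MLX, which encode the dimer itself, were called in none of the 15 comparisons in the fit over all libraries. MLXIP spans 122516652 to 122628967 of chromosome 12 and MLX spans 40719078 to 40725221 of chromosome 17, each on the plus strand. MLXIP was at 47.3 and 55.6 CPM with vehicle and at 47.1 and 56.0 CPM with TAK-981 in MM1S, and the interval of its log2 fold change was −0.18 to 0.19. In MM1R it was at 52.5 and 49.1 CPM with vehicle and at 57.3 and 56.5 CPM with TAK-981, with 0.17 (interval −0.014 to 0.35), a value that was called when only the groups compared were fitted. With combo MLXIP stood 0.18 above vehicle in MM1S and 0.16 in MM1R. The first was called under the replicate block, with only the groups compared and without MM1S Veh replicate 2 (0.30), and the second with only the groups compared. Against TAK-981 alone, combo in MM1S was at 0.18 and was called without MM1S TAK replicate 2 (0.31). MLX changed with TAK-981 by 0.010 in MM1S (interval −0.14 to 0.16) and by 0.028 in MM1R (interval −0.12 to 0.18). Across all groups the highest mean of MLX was 1.09 times its lowest and that of MLXIP 1.15 times. PSMC3IP, on the opposite strand, shares 894 bases with MLX and had 115 to 883 counts where MLX had 1048 to 1654. The paralogue of MLXIP, MLXIPL (ChREBP), had 0 or 1 count in each library, and ARRDC5 had 0 in all 16. A count of 0 allows up to 3 counts in a library.

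Counted together, 4 of the 7 genes were called higher with TAK-981 in MM1S (TXNIP, ARRDC1, ARRDC3 and ARRDC4), where 49% of all tested genes were called, 25.2% higher and 23.7% lower. In MM1R 3 were called higher (TXNIP, ARRDC3 and ARRDC4), where 53.4% of all genes were called, 25.8% higher and 27.6% lower. No member was called lower in either line. The choice of members used these comparisons, so nothing is read from the counts. For the difference between the lines in the TAK-981 change, 0 members were called by edgeR, against 4.16% of all genes (3.19% higher and 0.978% lower). At an unadjusted p under 0.05 it was 1 member, ARRDC1, where 3021 of the 14215 genes tested were counted. By DESeq2 it was 0 members and 608 genes.

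**Figure D2:**
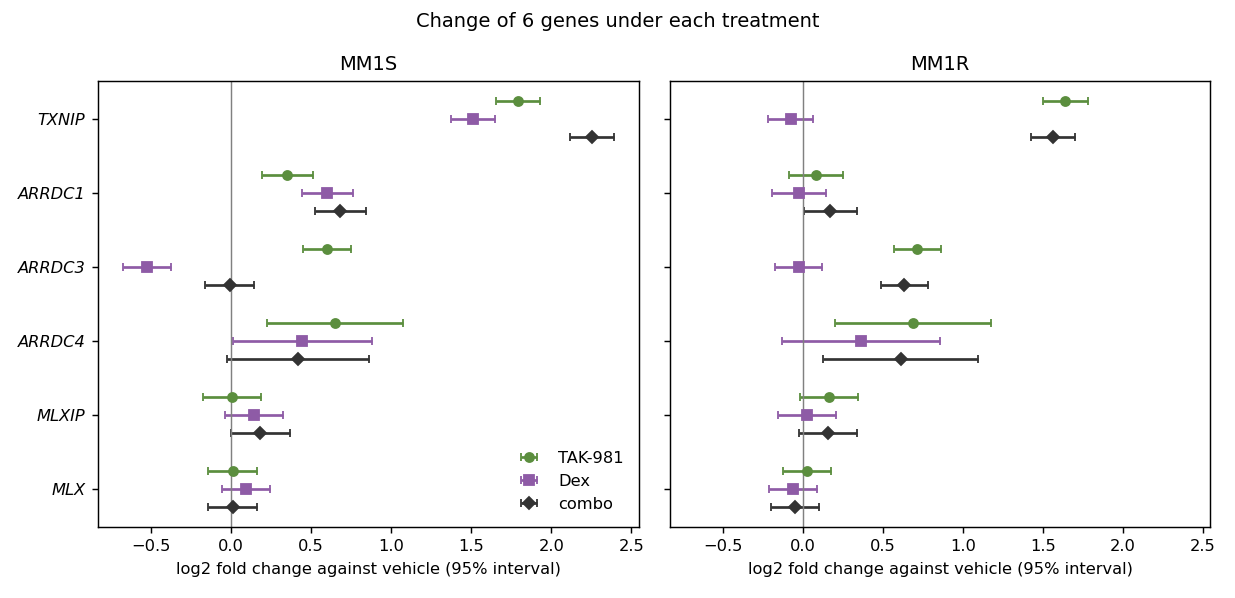
Log2 fold change against vehicle with 95% interval (horizontal axis) for 6 genes under TAK-981 (green circles), Dex (purple squares) and combo (black diamonds) in MM1S (left) and MM1R (right). ARRDC2 is left out for its low counts, Dex values in MM1R lie between −0.075 and 0.36, and ARRDC3 is the only gene below 0 with Dex in MM1S, at −0.52.

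Dex moved TXNIP and ARRDC3 in opposite directions in MM1S. TXNIP rose 2.85-fold (log2 fold change 1.51, interval 1.37 to 1.65) and ranked 37th of the 9646 genes. ARRDC3 fell by 0.52 on the log2 scale (interval −0.68 to −0.37), from 108 and 102 CPM with vehicle to 75.4 and 70.1 CPM with Dex. ARRDC1 rose from 28.8 and 29.1 CPM to 44.4 and 43.3 CPM, 0.60 on the log2 scale (interval 0.44 to 0.76). These 3 genes had no overlap between Dex and vehicle libraries. ARRDC4, at 4.20 and 3.88 CPM with Dex, lay above its vehicle libraries but was not called, with 0.45 (interval 0.012 to 0.88). MLXIP, at 59.6 and 54.2 CPM, overlapped its vehicle libraries. MLX, at 71.3 and 70.9 CPM against 69.0 and 64.1 CPM with vehicle, was not called at 0.094 (interval −0.057 to 0.25). Of the 7 genes 2 were called higher and 1 lower, where 42.3% of all genes were called, 20.8% higher and 21.5% lower.

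In MM1R none of the 7 was called with Dex, and 0% of all genes were called by edgeR or by DESeq2. At an unadjusted p under 0.05, 395 genes and 0 members were counted. The TXNIP value was −0.075 (interval −0.21 to 0.064) although its Dex libraries, at 434 and 471 CPM, lay below vehicle at 478 and 474 CPM. ARRDC3, at 128 and 123 CPM with Dex, and ARRDC1, at 21.0 and 21.7 CPM, overlapped their vehicle libraries. The difference of the Dex change between the lines, MM1R minus MM1S, was called for 3 members, TXNIP at −1.59 (interval −1.78 to −1.39), ARRDC1 at −0.62 and ARRDC3 at 0.50 (interval 0.29 to 0.71), where 28.1% of all genes were called, 15% higher and 13.1% lower.

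ARRDC2, on chromosome 19 from 18111944 to 18124911, plus strand, had 0 to 15 counts per library, and only 8 of 16 libraries had more than 3. In MM1S it had 4 and 1 counts with vehicle, 5 and 4 with TAK-981, 9 and 6 with Dex and 15 and 14 with combo, and in MM1R 0 to 4 counts in every library. The combo libraries of MM1S stood above all others. Their 29 counts against 5 with vehicle gave a ratio of 6.89 after scaling (exact 95% interval 2.64 to 22.8, for counting error only). Because only the combo group brought the gene past the filter, its call there, this ratio and the interval were bound to the choice of genes tested. They are a description and no test of a change. The MM1R counts are too few for a statement on ARRDC2 in that line.

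Combo was compared with each drug alone and with the sum of the single changes. In MM1S TXNIP was higher with combo than with TAK-981 (log2 fold change 0.46, interval 0.33 to 0.60) and than with Dex (0.74, interval 0.60 to 0.88). Its change against vehicle was 4.77-fold (2.25 on the log2 scale), short of the 9.86-fold (3.30) that the sum of the log2 changes of both drugs would give. The difference was −1.05 (interval −1.24 to −0.85) and was called lower, as were 9.48% of all genes, with 5.47% called higher and 14.9% in either direction. ARRDC1 (−0.27) and ARRDC4 (−0.68) also stood below the sum in MM1S but were not called, though ARRDC1 was called under the replicate block. In MM1R combo gave 1.56 where TAK-981 alone gave 1.64, the sum of both single changes was 1.57, and the difference from the sum was −0.0018 (interval −0.20 to 0.19). There 0 members and 0% of all genes were called by edgeR and by DESeq2, with 0 members and 400 genes at an unadjusted p under 0.05.

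ARRDC3 in combo-treated MM1S, at 109 and 99.1 CPM, overlapped vehicle at 108 and 102 CPM, with a log2 fold change of −0.0085 (interval −0.16 to 0.14). It was lower than with TAK-981 alone, by −0.61, and higher than with Dex alone, by 0.52, and the sum of the opposite single changes was 0.074. In MM1R it was at 205 and 191 CPM with combo, 0.63 above vehicle on the log2 scale (interval 0.49 to 0.78). ARRDC1 in MM1S reached 46.0 and 46.9 CPM with combo, 0.33 above TAK-981 and 0.083 above Dex, the latter not called. ARRDC4 in MM1S stood at 4.15 and 3.79 CPM with combo, not called against vehicle at 0.42 (interval −0.025 to 0.86), while in MM1R its combo libraries, at 2.13 and 3.47 CPM, were far apart. Its call against vehicle in MM1R (0.61) was lost with DESeq2 and without MM1R Veh replicate 1 (0.49), MM1R Veh replicate 2 (0.75) or MM1R com replicate 2 (0.23).

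**Figure D3:**
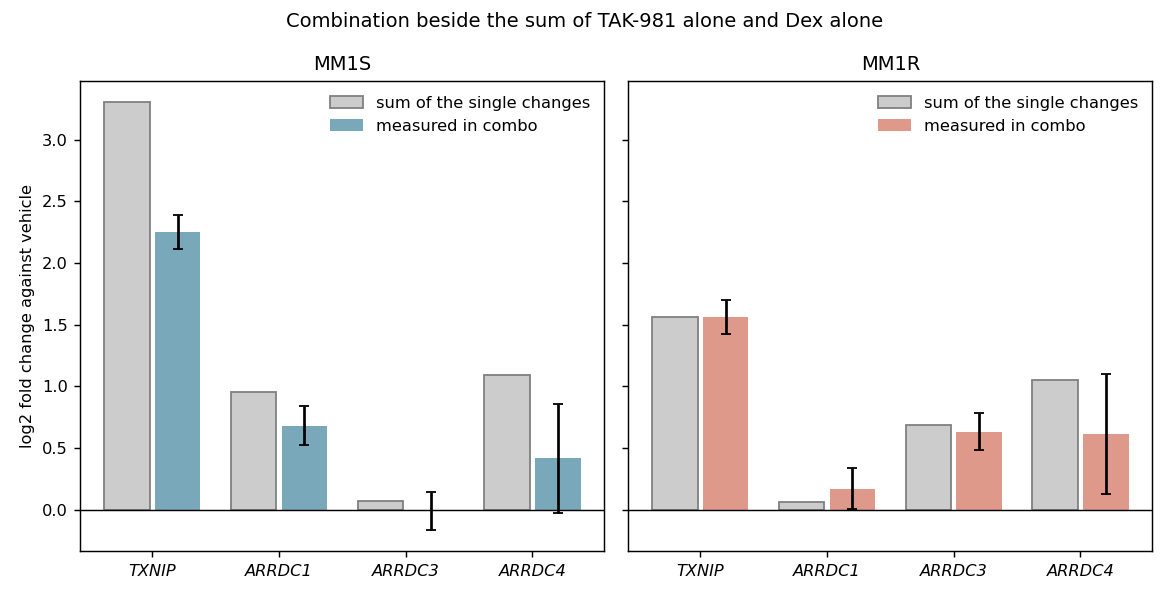
Measured log2 fold change of combo against vehicle (coloured bars, with 95% interval) beside the sum of the log2 fold changes of TAK-981 alone and Dex alone (grey bars) for 4 genes in each line. TXNIP in MM1S is the pair with the largest gap, 2.25 measured against a sum of 3.30, and in MM1R the pair is 1.56 and 1.57.

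ARRDC2 is left out of the following counts for MM1S, since its calls with combo there were bound to the filter. Against vehicle, combo called TXNIP and ARRDC1 higher in MM1S, where 60.3% of all genes were called, 30.8% higher and 29.5% lower. It called 3 higher in MM1R (TXNIP, ARRDC3 and ARRDC4), where 51.5% were called, 24.8% higher and 26.7% lower. Against TAK-981 alone, TXNIP and ARRDC1 were called higher and ARRDC3 lower in MM1S, where 35.1% of all genes were called, 14.5% higher and 20.6% lower. The call of ARRDC2 there was lost without MM1S TAK replicate 2 or MM1S com replicate 1, and DESeq2 gave it no adjusted p. In MM1R 0 members and 0% of all genes were called in that comparison by edgeR and by DESeq2, with 0 members and 214 genes at an unadjusted p under 0.05. Against Dex alone, TXNIP and ARRDC3 were called higher in each line, where 47.6% of all genes were called in MM1S (22.2% higher and 25.4% lower) and 48.4% in MM1R (23.1% higher and 25.3% lower). All of these comparisons share libraries with those of the single drugs.

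Between the vehicle-treated lines 4 of the 7 genes differed, where 48.2% of all genes were called, 25.6% higher and 22.6% lower in MM1R. TXNIP was lower in MM1R, at −0.49 on the log2 scale (interval −0.63 to −0.36), and at −0.61 to −0.37 as each library was left out. ARRDC1 was at −0.41 (interval −0.58 to −0.25). ARRDC4 was at −0.70, a call lost without MM1S Veh replicate 1 (−0.63) or MM1R Veh replicate 1 (−0.58). ARRDC3 was higher in MM1R, by 0.28 (interval 0.14 to 0.43). MLXIP and MLX overlapped between the lines, at −0.017 (interval −0.20 to 0.16) and 0.030 (interval −0.12 to 0.18).

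Within the family the genes did not keep 1 order of groups. In MM1R all of TXNIP, ARRDC3 and ARRDC4 had their highest group means with TAK-981 and with combo. In MM1S the highest mean was in combo for TXNIP and ARRDC1, but with TAK-981 for ARRDC3, at 159 ± 14.1 CPM, and ARRDC4, at 4.65 ± 0.245 CPM (SD, n = 2 each). ARRDC3 was lowest in Dex-treated MM1S, at 72.8 ± 3.76 CPM, a group in which TXNIP was at 1913 ± 82.9 CPM (SD, n = 2 each).

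**Figure D4:**
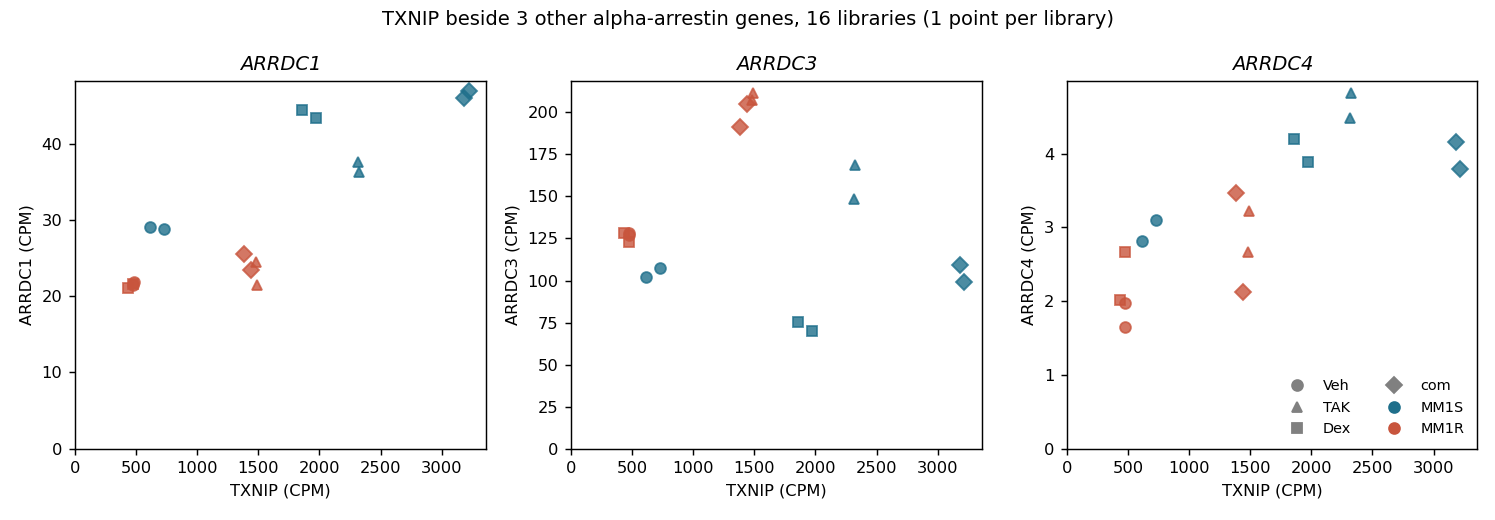
Level of TXNIP (horizontal axis, CPM) against the level of ARRDC1, ARRDC3 and ARRDC4 (vertical axes, CPM), 1 point per library, with MM1S in blue and MM1R in red and a marker shape for each treatment. In the middle panel the Dex-treated MM1S libraries (squares) have TXNIP at 1854 and 1971 CPM but the lowest ARRDC3, at 75.4 and 70.1 CPM.

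The genes whose log2 CPM followed each member most closely over the 16 libraries were ranked by Pearson's r among 11575 genes, as a description. The 16 points share 8 groups, so each r mostly carries the pattern of the group means. Nearest to TXNIP were NDST2 (r = 0.986), an enzyme of heparan sulfate synthesis, CRY2 (0.983), a repressor of the circadian clock, and ZNF763 (0.983). Nearest to ARRDC1 were BRD3 (0.991), which binds acetylated histones, MED28 (0.987), a Mediator subunit, and MTURN (0.987). Nearest to ARRDC3 were MAN1A1 (0.984), a Golgi mannosidase, PTGS1 (0.983), a cyclooxygenase, and MCTP1 (0.979). The best match was lower for ARRDC2 (DENND4C, 0.953, among 11576 genes), ARRDC4 (NRG1, 0.940), MLX (CAP1, 0.856) and MLXIP (LOC100505715, 0.807). MLX and MLXIP varied less, and ARRDC2 and ARRDC4 rested on fewer counts, but the cause of the lower r was not tested.

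The genes that work with the members were read from lists, each described by its counts and its median log2 fold change beside the median of all genes tested, which was 0.037 for TAK-981 in MM1S, 0.0043 for TAK-981 in MM1R and 0.011 for Dex in MM1S. The lists were chosen with earlier results of these data known, and most genes named were picked for a small adjusted p. Their p-values thus describe the ranking within a list and are no evidence for the list. A gene named for 1 line may have moved in the other too. Of all genes tested, 25.2% were called higher and 23.7% lower with TAK-981 in MM1S, and 25.8% and 27.6% in MM1R. With Dex in MM1S the shares were 20.8% and 21.5%. No list was tested against these shares, and several list counts below lie near them. Near them were the TAK-981 counts of the ESCRT and cargo list and, in MM1R, of the MAX and MLX network. So were the counts called lower among NEDD4-family genes in all 3 comparisons and among glucose genes with Dex in MM1S. The thioredoxin system, whose central protein TXNIP binds, was mostly lower. Of its 11 genes 6 fell and 2 rose with TAK-981 in MM1S (median −0.29), 8 fell and 0 rose in MM1R (median −0.40), and 6 fell and 2 rose with Dex in MM1S (median −0.19). TXN, thioredoxin itself, went from 130 ± 3.99 to 86.6 ± 3.51 CPM with TAK-981 in MM1S (log2 fold change −0.58, edgeR adjusted p = 7.68e-06) and was at 57.9 ± 8.37 CPM with combo (SD, n = 2 each). TXNRD1, the cytosolic thioredoxin reductase, fell in all 3 comparisons, by 0.38, 0.45 and 0.39 on the log2 scale. PRDX3, the mitochondrial peroxiredoxin, fell by 0.51 with TAK-981 (adjusted p = 1.34e-05) and by 0.52 with Dex (adjusted p = 1.45e-05) in MM1S, and PRDX2 fell by 0.76 with TAK-981 in MM1R (adjusted p = 2.84e-07). TXNRD2, the mitochondrial reductase, rose by 0.58 with TAK-981 and by 0.57 with Dex in MM1S. It is named outside the fixed rule, after its values were seen.

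Genes of glucose uptake and hexose phosphate handling, which set the signal that MondoA senses, fell where they were called with TAK-981, 4 of 11 tested in MM1S (median −0.15) and 8 of 11 in MM1R (median −0.43), and none rose. HK2, a hexokinase that makes glucose 6-phosphate, went from 94.7 ± 9.53 to 42.1 ± 9.23 CPM with TAK-981 in MM1S (log2 fold change −1.17, adjusted p = 4.70e-08) and to 59.0 ± 2.15 CPM with Dex (−0.68, adjusted p = 2.92e-05; SD, n = 2 each). GPI, which turns glucose 6-phosphate into fructose 6-phosphate, fell by 0.62 and 0.53 with TAK-981 in MM1S and MM1R and by 0.57 with Dex in MM1S. SLC37A4, which carries glucose 6-phosphate into the endoplasmic reticulum, fell by 0.70 in MM1R (adjusted p = 2.17e-06). With Dex in MM1S 3 genes of the list fell and 1 rose (median −0.15). Of the list's 14 genes 3 were too low to test.

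The network of MAX and MLX partners moved both ways, with 4 of 10 tested genes higher and 4 lower with TAK-981 in MM1S (median 0.091), 3 higher and 2 lower in MM1R (median 0.044), and 5 higher and 4 lower with Dex in MM1S (median 0.10). MXD4, a repressor that pairs with MAX, rose in all 3 comparisons, from 71.1 ± 5.93 to 130 ± 7.40 CPM with TAK-981 in MM1S (SD, n = 2 each), 0.87, 0.75 and 0.58 on the log2 scale. MYC, which competes for MAX and for E-boxes, fell with TAK-981, by 0.68 in MM1S and by 0.56 in MM1R (adjusted p = 4.45e-08 and 5.38e-07). MYC rose with Dex in MM1S, from 355 ± 1.14 to 464 ± 10.7 CPM (SD, n = 2 each). MXI1, another MAX partner, fell with Dex in MM1S by 0.68.

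NEDD4-family ligases and their adaptors, which alpha-arrestins recruit, had 5 of 11 genes higher and 2 lower with TAK-981 in each line (medians 0.12 in MM1S and 0.19 in MM1R), and 1 higher and 3 lower with Dex in MM1S (median −0.13). SMURF1 rose with TAK-981, by 0.63 in MM1S and by 0.71 in MM1R (adjusted p = 1.51e-06 and 3.15e-07), and HECW1 rose by 0.68 in MM1R. NEDD4L fell by 0.75 with TAK-981 and by 1.04 with Dex in MM1S, from 28.2 ± 1.36 CPM with vehicle to 16.7 ± 1.08 and 13.7 ± 0.483 CPM (SD, n = 2 each). WWP2 rose by 0.32 with Dex in MM1S (adjusted p = 6.30e-04).

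Among ESCRT partners and membrane cargo of the arrestins, 2 of 11 were higher and 2 lower with TAK-981 in MM1S (median −0.015), 3 and 3 in MM1R (median 0.016), and 4 and 3 with Dex in MM1S (median −0.051). F2R, the thrombin receptor that ARRDC3 helps to sort, fell in MM1S with TAK-981 by 0.84 (adjusted p = 1.07e-05) and with Dex by 1.33 (adjusted p = 8.06e-08). SLC11A2, an iron transporter, fell in MM1S by 0.41 with TAK-981 and by 0.76 with Dex. ITGB4, an integrin, fell by 0.60 with TAK-981 in MM1R (adjusted p = 0.00105), and VPS4A, an ESCRT ATPase, fell by 0.23 there. In MM1S ITGB4 went from 15.3 ± 1.84 CPM with vehicle to 7.26 ± 0.358 CPM with Dex (SD, n = 2 each). Of 5 other arrestin genes only ARRB2, which encodes beta-arrestin 2, was abundant enough to test. It fell with TAK-981 in MM1R by 0.46, from 29.5 ± 1.34 to 21.4 ± 0.588 CPM (SD, n = 2 each), and with Dex in MM1S by 0.35.

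**Figure D5:**
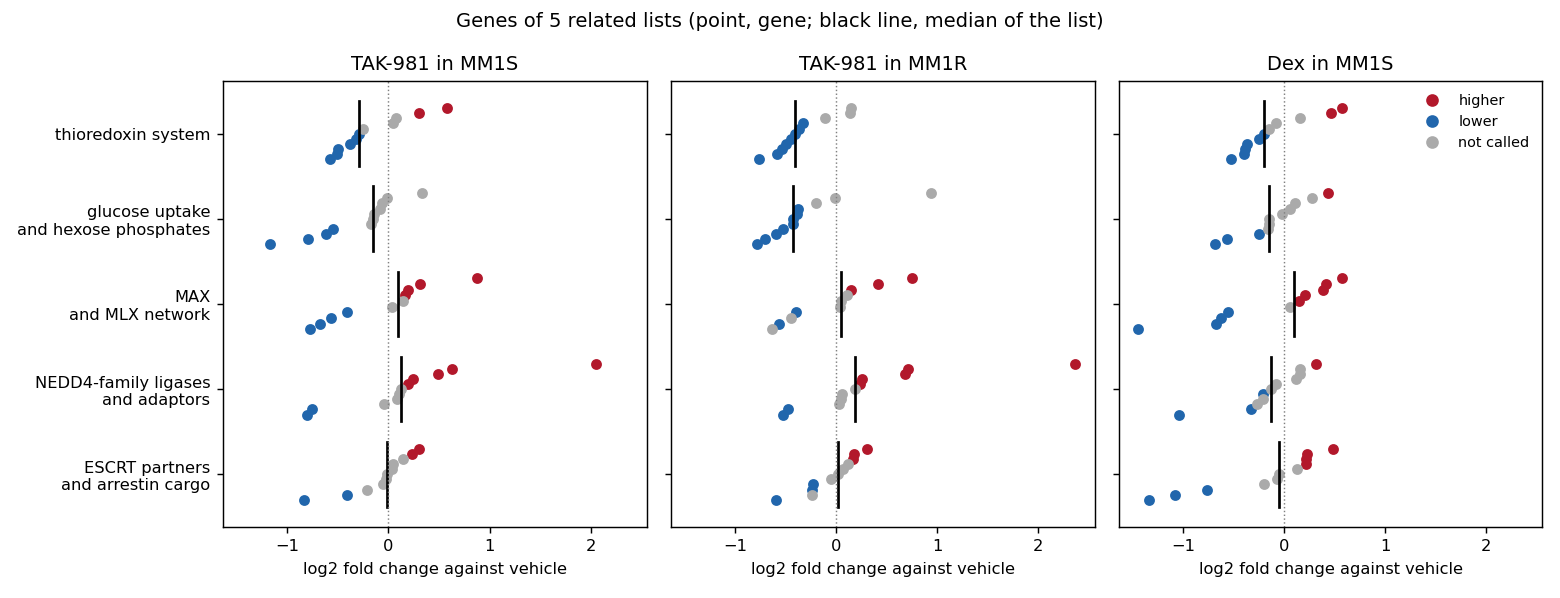
Log2 fold change against vehicle (horizontal axis) of each tested gene of 5 related lists, for TAK-981 in MM1S, TAK-981 in MM1R and Dex in MM1S, with red points called higher, blue points called lower, grey points not called and a black line at the list's median. Thioredoxin system medians are −0.29, −0.40 and −0.19, and the medians of the MAX and MLX network are 0.091, 0.044 and 0.10.

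The reference genes for a glucocorticoid response set the size of the TXNIP change with Dex in MM1S beside genes known for it. Of 8 such genes 7 rose and 0 fell with Dex in MM1S (median 2.80), with FKBP5, a chaperone partner of the receptor, at 4.596 (adjusted p = 1.22e-18) and TSC22D3, which encodes GILZ, at 3.71 (adjusted p = 1.38e-15), against 1.51 for TXNIP. With TAK-981 alone the list divided, with 4 higher and 2 lower in MM1S (median 0.33) and 3 higher and 1 lower in MM1R (median 0.39). FKBP5 fell by 0.71 with TAK-981 in each line, while SGK1, a kinase, rose by 0.65 in MM1S (adjusted p = 6.25e-08) and TSC22D3 rose by 0.89 in MM1R (adjusted p = 9.86e-08). In combo-treated MM1S FKBP5 was at 3066 ± 57.9 CPM against 1663 ± 87.0 CPM with Dex alone (SD, n = 2 each), and in MM1R it stood at 58.0 ± 1.67 CPM with combo.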

How the data were processed

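RNA-seq of 16 libraries, 2 for each of 8 groups of cell line and treatment, was read from a table of raw read counts per gene that the authors deposited without normalization, with hg19 positions. The submitters' processing notes name bcl2fastq 2.18.0.12, STAR 2.6.0, HTSeq 0.6.0, edgeR 3.28.1 and hg19. The use of strand in counting is not given in the sources used here. Total counts per library were 15707587 to 24796539. Precision is limited by 2 libraries per group, and as separate cultures are not stated, p-values measure only the spread between libraries, which may be technical. Library pairs differed by more than counting noise (chi-square per degree of freedom 2.08 to 21.2).

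Counts were tested with edgeR 4.0.16 (R 4.3.3; limma 3.58.1 loaded): filterByExpr (14215 of 23354 genes kept), TMM, 1 term per group over all libraries, robust quasi-likelihood fit with 8 residual degrees of freedom, 15 contrasts, and Benjamini-Hochberg adjustment over all genes tested at 0.05. Log2 CPM used a prior count of 2. The members and lists were chosen with earlier results of these data known. Members got no p. Genes named are all members, genes overlapping them, ARRDC5 and MLXIPL, 3 checks of the Dex response (NR3C1, FKBP5, TSC22D3), up to 2 genes with the smallest adjusted p per list among the TAK-981 comparisons of both lines and Dex in MM1S, and the 3 genes most like a member. The 7 lists were other arrestins, NEDD4-family ligases and adaptors, thioredoxin system, glucose uptake and hexose phosphates, MAX and MLX network, ESCRT partners and arrestin cargo, and glucocorticoid-induced references. Alternatives were RLE, library size only, no filter, DESeq2 1.42.0, a replicate block, only the groups compared, and leaving out each library. The test was checked on simulated counts for TAK-981 in MM1S, drawn without a shared replicate effect. It called 92% of 100 genes raised 1.5-fold and 100% of 100 raised 2-fold, with 11 false calls. The SD of the error at 1.5-fold, 0.118, was above the median SE of 0.0934. Genes with low counts were not among those raised, so the check does not cover ARRDC2. The result of 1 marker list is not reported here.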

Additional observations from a re-analysis of the deposited data

Results flagged for a closer look

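The Dex change differed between the lines for 3 of the 7 genes, by the interaction of line and Dex in edgeR's fit over all libraries. MM1R minus MM1S, it was −1.59 for TXNIP, −0.62 for ARRDC1 and 0.50 for ARRDC3 on the log2 scale. With 1 library left out at a time these ran from −1.71 to −1.47, from −0.65 to −0.60 and from 0.46 to 0.55. Across all tested genes 28.1% were called in this comparison. With Dex in MM1R 0% of all genes were called. The 3 differences largely repeat, with the sign turned, the Dex changes in MM1S of 1.51, 0.60 and −0.52. As the members were chosen with these results known, the values are a description.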

How the results depend on the processing

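No value of a member that was called changed sign under an alternative. Values that were not called did. Under the other settings 16 of 604 that stayed on their side of the threshold changed sign. All of these were at most 0.030 in size in the fit over all libraries. With 1 library left out 58 of 518 changed sign, of up to 1.53 in size in that fit (ARRDC2, line by Dex). A call was gained by 9 values and lost by 2 under the other settings, and gained by 3 and lost by 11 with 1 library left out. DESeq2 gave no adjusted p for 4 values of ARRDC2. The number of members called, ARRDC2 included, differed by more than 1.5 times in the following cases. For combo against vehicle in MM1R with only the groups compared it was 5 in place of 3 (ARRDC1 and MLXIP added). For the difference from the sum in MM1S under the replicate block it was 2 in place of 1 (ARRDC1 added), while all genes called went from 2125 to 3579. The share of all genes called is not given for the other settings, so these counts are a description. ARRDC2 is included in the next counts too, although its calls with combo in MM1S were bound to the filter. Leaving out each library gave 3 to 4 members for TAK-981 in MM1S, 2 to 3 in MM1R, 3 to 4 for combo against vehicle in MM1S, 2 to 3 in MM1R, 3 to 4 for combo against TAK-981 in MM1S, 2 to 3 for combo against Dex in MM1R and 3 to 4 between the vehicle-treated lines, with no move in the other comparisons.

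The samples were not taken as paired by replicate number, since no label ties the numbers and not every correlation of same-numbered deviations was over 0.1. In MM1S they ran from 0.066 to 0.50 (5 of 6 over 0.1) and in MM1R from 0.019 to 0.17 (2 of 6). All were above 0, a hint from the data of shared replicate effects, mainly in MM1S. The replicate block added a call for MLXIP (combo against vehicle in MM1S). It added a call for ARRDC2 (combo against Dex in MM1S), a value bound to the filter that ARRDC2 passed only through combo-treated MM1S. It also added calls for ARRDC1 (combo against Dex in MM1R, and the difference from the sum in MM1S), and removed none. It raised the genes called for line by TAK-981 from 592 to 2061 and for the difference from the sum in MM1S from 2125 to 3579. ARRDC2 left most fits of only the groups compared, having too few counts, and depth limits what can be said of it and of ARRDC4. The cause of these moves was not tested.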
